A study of Mus musculus with 8 samples.

Results

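The 50 genes described here belong to the Wnt, BMP and TGF-beta signalling pathways and were taken from a list of gene names, out of 34324 genes, coding for proteins or long noncoding RNAs, on mouse chromosomes 1 to 19 and X. They comprise 9 Wnt ligands, 6 Wnt receptors, 7 intracellular Wnt components and Tcf/Lef factors, and 4 Wnt agonists and Dickkopf proteins. They also hold 4 BMP ligands, 2 BMP receptors, 2 BMP antagonists, 5 SMADs, 3 TGF-beta ligands, 3 TGF-beta receptors and 5 genes of the activin and myostatin arm. A locus was the RefSeq gene body extended by 10 kb at each end, and every peak that touched it was counted. Open chromatin was measured by ATAC-seq, in which the transposase Tn5 tags accessible DNA, in muscle stem cells (satellite cells) of C57BL/6 mouse hindlimb. There were 2 libraries in each of 4 groups. LncMyod siRNA cells had been cultured for differentiation and had received, for 48 h before harvest, an siRNA that targets the long noncoding RNA LncMyod. Control siRNA cells were satellite cells in the same kind of culture with a control siRNA, for which the labels state no time. ASC were taken from muscle 2.5 days after injury, and QSC were satellite cells used directly after isolation; neither received an siRNA. Control siRNA cells differ from ASC and QSC in culture, siRNA and differentiation conditions at once, and the parts of these cannot be told apart. Nothing in the labels tells whether replicates are separate animals or cultures; p-values therefore reflect the spread between these libraries alone, which may be technical. The peak lists hold no RNA, so the level of LncMyod was not checked.

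Wnt proteins bind Frizzled receptors and the co-receptors LRP5 and LRP6, which frees beta-catenin from the Axin complex to act with Tcf/Lef factors on DNA. BMP, TGF-beta, activin and myostatin ligands bind pairs of serine/threonine kinase receptors that phosphorylate SMAD proteins, while secreted antagonists such as noggin, gremlin and follistatin bind the ligands outside the cell. In skeletal muscle myostatin is known as an inhibitor of growth, and Wnt and BMP signals are known to take part in satellite cell activation, proliferation and differentiation.

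Most annotated starts of these genes lay under a peak in every library. RefSeq promoter windows of GRCm38.p6, whose chromosomes have the coordinates of mm10, reach from 250 bases before to 50 bases after a start and were found for 34 of the 50 genes, with 44 windows in all. The other 16 are Wnt5a, Wnt7b, Fzd2, Lrp5, Lrp6, Axin1, Rspo3, Dkk3, Bmp2, Bmp7, Nog, Smad2, Smad7, Tgfb3, Tgfbr3 and Fst. Of these windows, 34 (77.3%) lay under a peak in all 8 libraries, against 40.6% of 32851 windows of the genome, and 3 (6.82%) in none, against 46.5%. The windows under no peak were the start of the myostatin gene Mstn, an internal start of Lef1 and an internal start of Tgfbr1. In a pair of genes, Bmp4 and Wnt5b, a start window was under a peak in both libraries of one group and in neither library of another. The Bmp4 window was under a peak in both QSC libraries and in no LncMyod siRNA, control siRNA or ASC library. An internal Wnt5b start was under a peak in control siRNA replicate 1 and in both QSC libraries, and in no ASC or LncMyod siRNA library. Thus 2 of the 44 windows (4.55%, against 0.968% of all windows) were under a peak in both QSC and neither ASC library, and 1 (2.27%, against 1.47%) in both QSC and neither control siRNA library. Counts this small describe these starts and are no result about the pathways.

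Their sequences are shown first, because these are the starts whose peaks differed between groups; the starts of Bmp6 and Grem1, which passed the test between ASC and QSC, follow for comparison. The windows are chr14:46390620-46390919 on the minus strand for Bmp4, chr6:119449337-119449636 on the minus strand for the internal start of Wnt5b, chr13:38345466-38345765 on the plus strand for Bmp6 and chr2:113758599-113758898 on the minus strand for Grem1, from RefSeq on GRCm38.p6. Each runs 5′ to 3′ on the strand of the gene, and capitals mark a Tcf/Lef core CTTTGA.
Bmp4: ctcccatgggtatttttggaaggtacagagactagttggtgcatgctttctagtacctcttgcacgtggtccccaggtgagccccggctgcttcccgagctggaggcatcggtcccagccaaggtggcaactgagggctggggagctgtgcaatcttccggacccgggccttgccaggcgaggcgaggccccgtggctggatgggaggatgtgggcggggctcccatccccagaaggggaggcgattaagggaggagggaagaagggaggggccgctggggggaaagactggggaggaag
Wnt5b: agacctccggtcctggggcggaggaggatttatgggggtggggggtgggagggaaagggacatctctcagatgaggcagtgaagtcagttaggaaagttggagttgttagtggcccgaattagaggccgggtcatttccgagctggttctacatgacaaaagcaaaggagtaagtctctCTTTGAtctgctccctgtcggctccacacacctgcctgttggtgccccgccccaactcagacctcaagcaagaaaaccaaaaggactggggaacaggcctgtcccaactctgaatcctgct
Bmp6: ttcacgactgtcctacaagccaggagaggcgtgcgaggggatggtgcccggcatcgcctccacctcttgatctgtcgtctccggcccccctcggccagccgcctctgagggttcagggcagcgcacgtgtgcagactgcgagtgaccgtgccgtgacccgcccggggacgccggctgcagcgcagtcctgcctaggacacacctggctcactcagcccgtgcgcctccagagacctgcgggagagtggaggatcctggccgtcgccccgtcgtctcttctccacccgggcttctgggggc
Grem1: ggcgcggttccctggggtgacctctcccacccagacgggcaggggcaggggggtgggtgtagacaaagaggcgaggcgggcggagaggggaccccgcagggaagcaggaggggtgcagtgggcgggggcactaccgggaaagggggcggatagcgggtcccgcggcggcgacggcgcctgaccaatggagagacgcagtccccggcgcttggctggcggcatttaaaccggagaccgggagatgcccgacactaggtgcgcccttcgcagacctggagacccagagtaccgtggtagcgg

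The Bmp6 and Grem1 windows were rich in G and C (69.3% and 70.7%) and held 27 and 28 CpG dinucleotides, and both starts lay under a peak in nearly all libraries (8 and 7 of 8, the exception being QSC replicate 1 for Grem1). The Bmp4 window had 64.0% G and C with 12 CpG. The internal Wnt5b window had 55.0% with 7, close to the medians of all windows (52.7% and 7). On both strands, the letters CTTTGA occurred in 16.0% of all windows and once in these 4, in Wnt5b at −71 from the start. The E-box CAGCTG (16.3% of all windows), the palindromic Smad element GTCTAGAC (0.213%) and TATAAA (13.6%) had no match in any of the 4. A missing match says only that these letters are not in the window.

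All 50 loci had enough covered length to be tested, and 49 held a peak in every library, the exception being Mstn. Covered length is the number of kb of a locus under peaks, scaled to the total covered by its library. Its mean over the 8 libraries ran from 0.868 kb at Mstn to 14.2 kb at Tcf7l2 with a median of 3.32 kb, against a median of 1.87 kb over all tested loci. Long genes had more: across the 50 loci, which share the same libraries, log2 mean covered length and log2 locus length had a Pearson r of 0.63. Summed over the 50 loci, covered length was 219 and 227 kb in LncMyod siRNA, 220 and 220 kb in the control siRNA libraries, 235 and 244 kb in ASC, and 244 and 242 kb in QSC. Summed by role, the BMP ligands had 13.0 and 14.6 kb in LncMyod siRNA, 12.7 and 12.0 kb in the control siRNA libraries, 15.9 and 14.6 kb in ASC, and 20.7 and 21.9 kb in QSC, where both libraries lay above all others. The TGF-beta receptors had 18.1 and 14.2 kb in LncMyod siRNA and 15.6 and 17.7 kb in the control siRNA libraries. They had 21.1 and 21.6 kb in ASC and 23.2 and 22.6 kb in QSC, so that ASC and QSC lay above the cultured libraries. Of these receptors only Tgfbr3 had that order (8.19 to 11.3 kb in culture, 11.9 to 17.8 kb in ASC and QSC). Tgfbr2 was lower in QSC (3.0 and 3.66 kb) than in every cultured library (4.42 to 6.61 kb). The intracellular Wnt components and Tcf/Lef factors were lowest in QSC, with 49.5 and 49.6 kb in LncMyod siRNA, 48.9 and 46.1 kb in the control siRNA libraries, 45.9 and 52.6 kb in ASC, and 40.9 and 39.2 kb in QSC. The SMADs had 28.1 to 31.1 kb in the cultured libraries and 31.8 to 36.9 kb in ASC and QSC. No test was made of these sums, which long genes dominate, and the sums of the other roles are not given. At 19 loci the window also reached another protein-coding gene, such as Tmem135 beside Fzd4 and Skp1 beside Tcf7, and a peak there cannot be assigned to one gene.

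**Figure D1:**
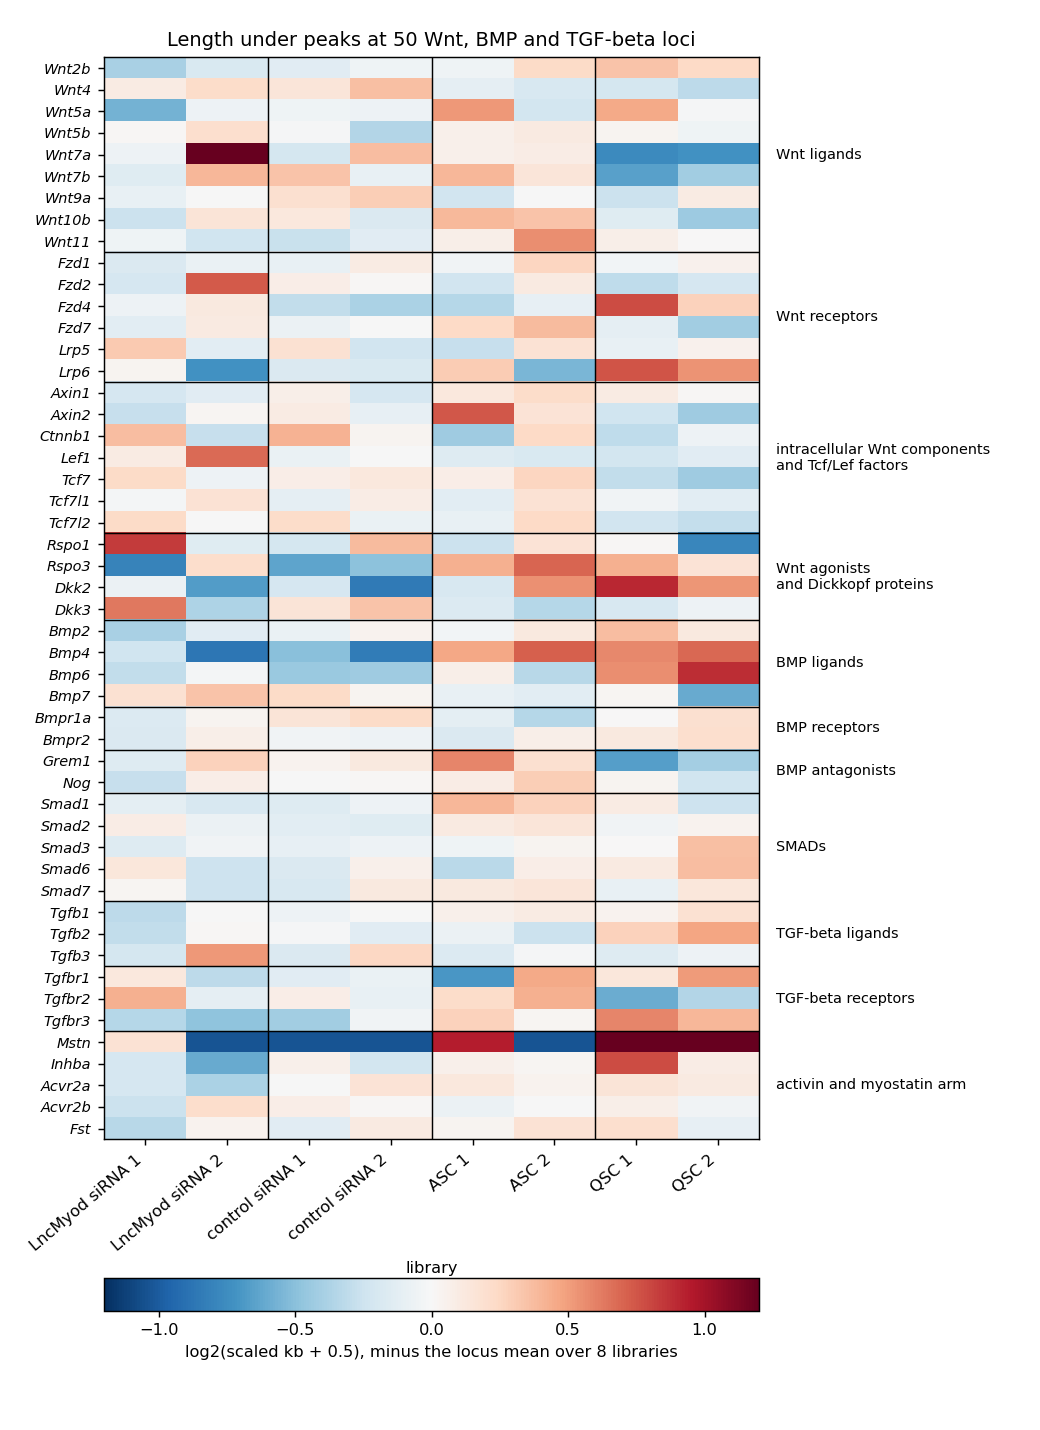
Covered length of the 50 loci (rows, by role) in the 8 libraries (columns), as log2(scaled kb + 0.5) minus the mean of that locus over the 8 libraries; red is above and blue below that mean, and values past the ends of the scale take the end colours. Mstn, Bmp4 and Bmp6 are highest in QSC or in ASC and QSC, and no locus passed the test between LncMyod siRNA and control siRNA.

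The peak lists held 95449 and 79396 peaks in LncMyod siRNA, 82854 and 81327 in control siRNA, 70341 and 59666 in ASC, and 69595 and 64991 in QSC. Reads are not part of these lists, so sequencing depth is unknown, and the lack of a peak does not show that a site is closed. The 8 satellite cell and myoblast markers, Pax7, Myf5 and Myod1 among them, held peaks in every library, with 33.5 to 44.2 kb in all. The 6 leukocyte markers summed to 8.2 and 11.9 kb in LncMyod siRNA, 10.4 and 10.4 kb in the control siRNA libraries, 5.84 and 4.24 kb in ASC, and 1.26 and 1.22 kb in QSC, where Ptprc, Itgam and Laptm5 were listed at 0 in both libraries. Ptprc was also listed at 0 in both LncMyod siRNA libraries, although their sum was high, so the markers of this list did not all move together. The 4 mural markers summed to 9.21 and 7.74 kb in LncMyod siRNA, 6.52 and 6.64 kb in the control siRNA libraries, 6.85 and 5.38 kb in ASC, and 11.9 and 13.1 kb in QSC. The 6 fibroadipogenic markers lay between 11.7 and 13.6 kb in the siRNA libraries and between 14.5 and 19.9 kb in ASC and QSC, and the 6 endothelial markers, whose sums overlapped between groups, between 13.5 and 18.4 kb throughout. The 4 glial markers summed to 14.4 and 14.3 kb in LncMyod siRNA, 15.2 and 17.1 kb in the control siRNA libraries, 18.4 and 17.1 kb in ASC, and 12.9 and 14.3 kb in QSC, with ASC above QSC in both libraries. Single markers of each of these lists passed the test in at least 1 comparison, among them Mbp (glial), which rose, and Tek (endothelial), which fell, in ASC against QSC (limma adjusted p = 0.0425 and 0.0128). The leukocyte, mural, glial and fibroadipogenic sums move with the comparisons below, and the part of these markers in the results was not tested. Fewer cells with an open site and less opening per cell cannot be told apart in such bulk libraries.

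The comparison of ASC with QSC addresses what differs in satellite cells after muscle injury. A Wnt effector, a BMP antagonist and a TGF-beta receptor gained covered length in ASC, and a BMP ligand lost it. Of the 50 loci, 3 rose (Grem1, Tgfbr2 and Tcf7) and 1 fell (Bmp6) at an adjusted p under 0.05 by limma, fitted and adjusted over all 27934 loci. That is 8.0% of the 50, below the 12.8% called among all loci (7.56% rose and 5.26% fell), so the count is not a result about these pathways. The median log2 change was 0.03 over the 50 and 0.06 over all loci.

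Bmp6 encodes a BMP ligand and lies at chr13:38345716-38500314. It had 7.9 and 5.84 kb under peaks in ASC, against 11.3 and 14.3 kb in QSC. The groups did not overlap, and the mean of 6.87 ± 1.46 kb in ASC stood against 12.8 ± 2.12 kb in QSC (SD, n = 2 each; log2 change −0.86, SE 0.18, limma adjusted p = 0.0247). Its start lay under a peak in every library, and part of the difference lay further inside the gene, where 4 regions, at 88118, 96534, 116241 and 136728 bp from the start, were held by both QSC libraries and by no other library. Their fold enrichment over the local background, the authors' value for each peak, was 2.62 to 4.61 in QSC. The first of them, chr13:38433512-38434156, had 4.61 and 3.79.

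Grem1, which encodes the BMP antagonist gremlin, lies at chr2:113748675-113758648. It had 3.09 and 2.24 kb in ASC, against 1.02 and 1.31 kb in QSC (log2 change 0.92, SE 0.21, limma adjusted p = 0.0328). Both ASC libraries lay above both QSC libraries. Besides the start, the locus held a single other region, chr2:113764834-113766186, centred at −6862 bp from the start. It also falls within the RefSeq gene Gm46756. It was present in every LncMyod siRNA, control siRNA and ASC library and in no QSC library, with fold enrichments of 7.45 and 4.37 in LncMyod siRNA, 7.23 and 6.82 in control siRNA, and 2.98 and 3.14 in ASC.

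Tgfbr2, the type II receptor of TGF-beta at chr9:116087695-116175363, had 5.67 and 6.6 kb in ASC, against 3.0 and 3.66 kb in QSC (log2 change 0.79, SE 0.19, limma adjusted p = 0.0418). The groups did not overlap. A merged region at the end of the gene, chr9:116086338-116089196, was held by both libraries of LncMyod siRNA, control siRNA and ASC and by no QSC library. It joins peaks at different places and is not 1 site shared by these libraries. LncMyod siRNA replicate 2 had only a peak at 88.826 to 89.025 kb from the start. Control siRNA replicate 2 had only one at 87.187 to 87.406 kb, which does not overlap it. Tcf7 encodes a Tcf/Lef factor, lies at chr11:52246527-52283383 and had 6.09 and 6.96 kb in ASC, against 4.59 and 4.15 kb in QSC (log2 change 0.53, SE 0.13, limma adjusted p = 0.0453). A region inside it, chr11:52273721-52275222, was held by both libraries of every group but QSC and by no QSC library.

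The next locus by p was Fzd4, a Frizzled receptor gene at chr7:89404366-89410110, with 1.49 and 1.86 kb in ASC, against 3.84 and 2.55 kb in QSC (log2 change −0.75, SE 0.2, adjusted p = 0.0508). With the gene body alone its change was 0.11, since the regions that differed lay in the flank. Both ASC libraries lay above both QSC libraries at 15 of the 50 loci (30.0%, against 33.1% of all loci) and below them at 12 (24.0%, against 21.7%). By role, 1 of 7 intracellular Wnt components and Tcf/Lef factors rose and the other 6 did not pass; their log2 changes lay between 0.01 and 0.79. None of the 9 Wnt ligands, 6 Wnt receptors, 4 Wnt agonists and Dickkopf proteins, 5 SMADs or 3 TGF-beta ligands passed. When weaker peaks (−log10 q under 5) were left out, the changes of Tcf7, Tgfbr2 and Grem1 were −0.59, −0.09 and 0.0, and none was called, while Bmp6 was called at −0.98. Leaving out any 1 of the 4 libraries ended the calls of Grem1 (adjusted p 0.0546 to 0.184), Tgfbr2 (0.0802 to 0.221) and Tcf7 (0.0668 to 0.214), and Bmp6 stayed called only without ASC replicate 1 (0.0288; 0.103 without ASC replicate 2, 0.0752 without QSC replicate 1 and 0.162 without QSC replicate 2).

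**Figure D2:**
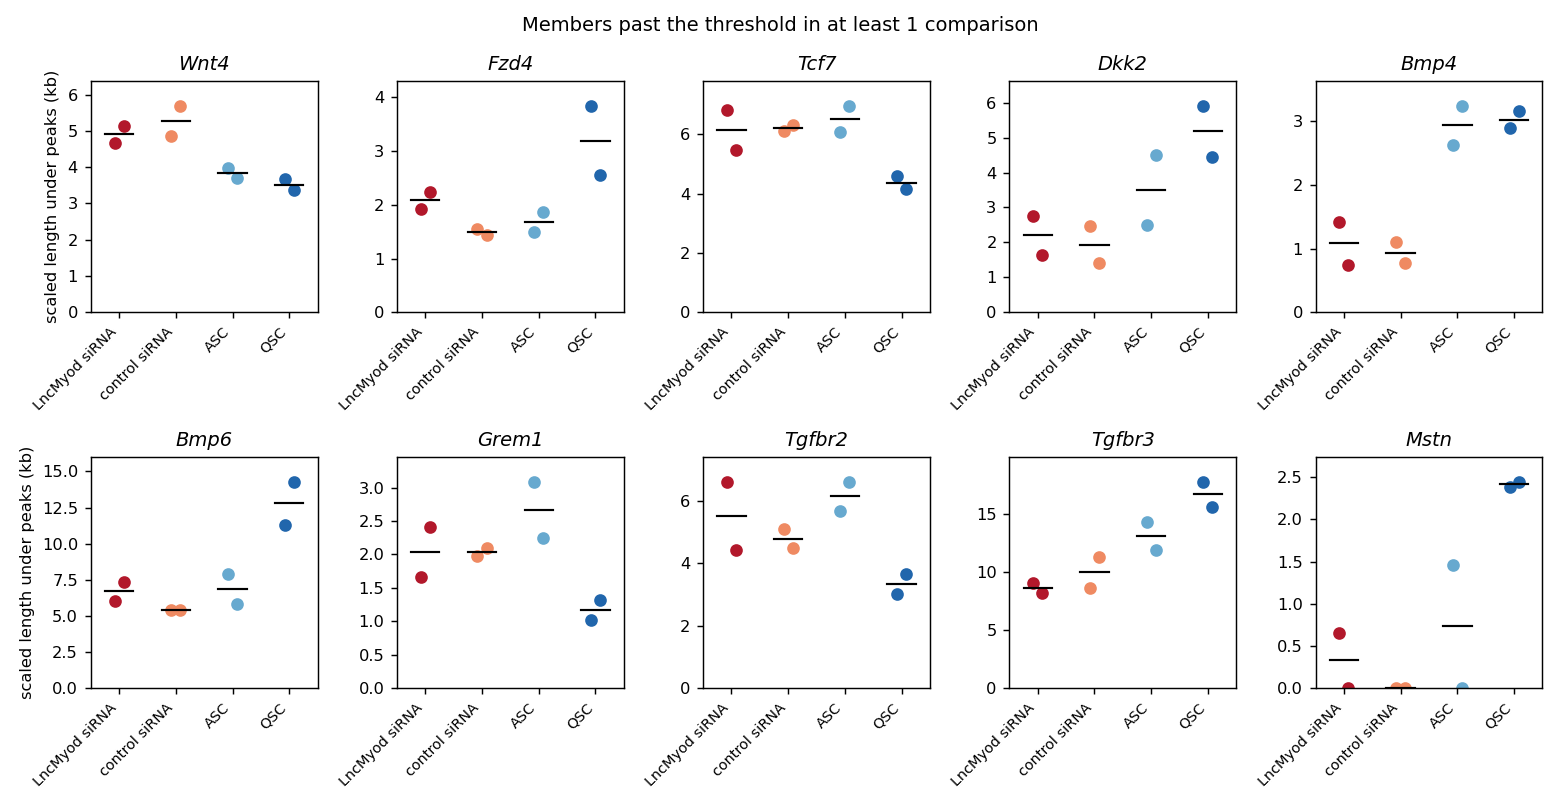
Scaled covered length in kb of the 10 loci that passed the test in at least 1 comparison; each point is a library and each line the mean of a group of 2. Bmp6, Fzd4, Dkk2, Tgfbr3 and Mstn stand highest in QSC, Grem1, Tgfbr2 and Tcf7 lowest in QSC, and Bmp4 is high in ASC and QSC alike.

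Cultured control siRNA cells were next compared with ASC. Of the 50 loci, 1 fell (Bmp4) and 0 rose, which is 2.0%, against 4.0% called among all loci (1.72% fell and 2.28% rose). Bmp4 encodes a BMP ligand and lies at chr14:46383525-46390669. It had 1.1 and 0.767 kb in control siRNA, against 2.63 and 3.24 kb in ASC. The groups did not overlap (0.935 ± 0.238 kb in control siRNA against 2.93 ± 0.43 kb in ASC, SD, n = 2 each; log2 change −1.26, SE 0.24, limma adjusted p = 0.0388). LncMyod siRNA cells had 1.42 and 0.74 kb there, and QSC had 2.89 and 3.16 kb.

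The Bmp4 locus held 4 regions. The one inside the gene, chr14:46385723-46389081, was under peaks in all 8 libraries, though the peaks spanned less of it in culture. The region at the start, chr14:46390259-46390940, held the window printed above and was found in QSC alone, with fold enrichments of 2.11 and 2.23. The third, chr14:46394053-46394517, centred at −3616 bp from the start, was held by both ASC and both QSC libraries, by LncMyod siRNA replicate 1 and by neither control siRNA library. The last was found in LncMyod siRNA replicate 1 only.

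The loci after Bmp4 in order of p did not pass. Rspo3, which encodes an R-spondin that strengthens Wnt signals, had 1.2 and 1.38 kb in control siRNA, against 3.05 and 3.79 kb in ASC (log2 change −1.13, SE 0.31, adjusted p = 0.0956). Its number of peaks moved the other way, with 3 and 3 in control siRNA against 1 and 1 in ASC. The region chr10:29532840-29536149 was held by all 8 libraries, and a region inside the gene, chr10:29515275-29515665, was found in all siRNA libraries and in no ASC or QSC library. Wnt4, a Wnt ligand gene, had 4.85 and 5.69 kb in control siRNA, against 3.98 and 3.71 kb in ASC (log2 change 0.41, SE 0.12, adjusted p = 0.11). Smad1, a SMAD of the BMP branch, had 4.39 and 4.74 kb in control siRNA, against 6.71 and 6.11 kb in ASC (log2 change −0.45, SE 0.14, adjusted p = 0.12).

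The type I BMP receptor gene Bmpr1a had 4.83 and 5.09 kb in control siRNA, against 3.92 and 3.27 kb in ASC (log2 change 0.42, SE 0.13, adjusted p = 0.13). In all these loci the groups did not overlap. Control siRNA lay above ASC in both libraries at 7 of the 50 loci (14.0%, against 21.4% of all loci) and below at 18 (36.0%, against 34.6%), with a median log2 change of −0.11 against −0.08. The Bmp4 call was lost without any 1 of the libraries (adjusted p 0.0735 without ASC replicate 1, 0.146 without ASC replicate 2, 0.144 without control siRNA replicate 1 and 0.197 without control siRNA replicate 2), while the log2 change stayed between −1.43 and −1.09. Without scaling to the library total it was −1.12 (adjusted p = 0.121).

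**Figure D3:**
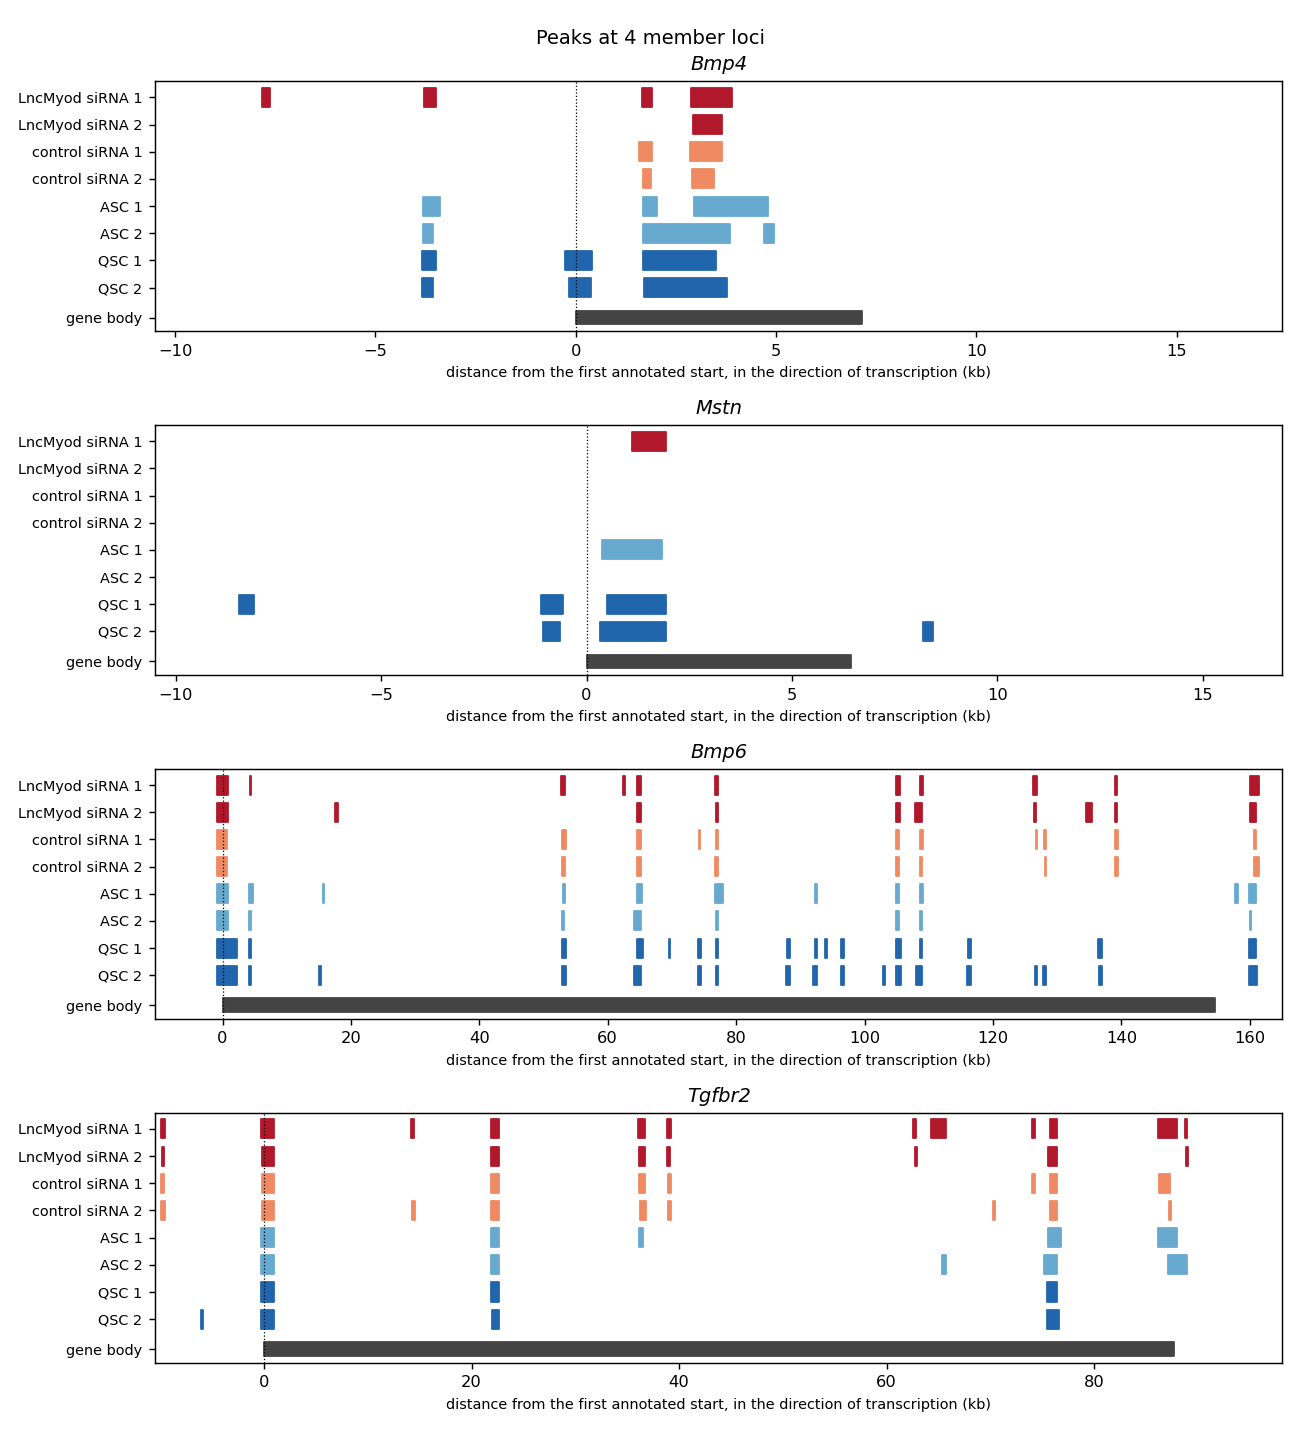
Peaks of each library at the Bmp4, Mstn, Bmp6 and Tgfbr2 loci, by distance in kb from the first annotated start in the direction of transcription; bars are peaks, coloured by group, and the dark bar is the gene body. At Bmp4 only the QSC libraries have a peak over the start, at Mstn the control siRNA libraries have no peak, and at Bmp6 several peaks inside the gene appear in QSC only.

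Control siRNA cells were also set against QSC, a comparison that shares libraries with both of those above. Of the 50 loci, 1 rose (Wnt4) and 6 fell (Bmp6, Bmp4, Tgfbr3, Fzd4, Mstn and Dkk2), or 14.0%, against 16.9% called among all loci. Among all loci, 6.96% fell and 9.96% rose. Bmp6 had 5.37 and 5.43 kb in control siRNA, against 11.3 and 14.3 kb in QSC (log2 change −1.17, SE 0.18, limma adjusted p = 0.00821). Bmp4 had 1.1 and 0.767 kb in control siRNA, against 2.89 and 3.16 kb in QSC (log2 change −1.31, SE 0.24, adjusted p = 0.014). For both BMP ligands each control siRNA library lay below each QSC library.

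Tgfbr3, which encodes betaglycan, a co-receptor that presents TGF-beta ligands, had 8.63 and 11.3 kb in control siRNA, against 17.8 and 15.6 kb in QSC (log2 change −0.73, SE 0.16, adjusted p = 0.0229). ASC lay between, with 14.3 and 11.9 kb. Fzd4 had 1.55 and 1.44 kb in control siRNA, against 3.84 and 2.55 kb in QSC (log2 change −0.87, SE 0.2, adjusted p = 0.0275), and with the gene body alone −0.05. At Fzd4 a flanking region, chr7:89415742-89416441, centred 11725 bp from the start, was found in both QSC libraries (fold enrichments 3.16 and 2.87) and in no other.

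Mstn, which encodes myostatin and lies at chr1:53061640-53068079, was listed at 0 in both control siRNA libraries and had 2.38 and 2.45 kb in QSC (limma adjusted p = 0.0367; no fold is given against 0). LncMyod siRNA had 0.655 and 0 kb and ASC 1.46 and 0 kb, so both groups held 1 library with a peak and 1 without. A region just upstream, chr1:53060526-53061067, centred at −843 bp from the start, was found in both QSC libraries, with fold enrichments of 3.72 and 3.16, and nowhere else. A second, inside the gene at chr1:53061973-53063581, was shared by both QSC libraries, ASC replicate 1 and LncMyod siRNA replicate 1.

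Dkk2, which encodes a Dickkopf protein that binds LRP5 and LRP6, had 2.48 and 1.4 kb in control siRNA, against 5.91 and 4.44 kb in QSC (log2 change −1.24, SE 0.34, adjusted p = 0.0486). Regions inside Dkk2 at chr3:132113813-132114153 and chr3:132168446-132169319 were found in QSC alone. Wnt4 had 4.85 and 5.69 kb in control siRNA, against 3.66 and 3.38 kb in QSC (log2 change 0.52, SE 0.12, adjusted p = 0.0289). A flanking region beyond its end, chr4:137300221-137300867, had fold enrichments of 5.9 and 5.73 in control siRNA and was absent from both QSC libraries. LncMyod siRNA, with 4.67 and 5.13 kb at Wnt4, lay near control siRNA.

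By role, 2 of 4 BMP ligands fell (Bmp6 and Bmp4), where 6.96% of all loci fell. The other 2 did not pass and differed in sign, with log2 changes of −0.26 for Bmp2 and 0.42 for Bmp7, and the median was −0.72 over the 4, against 0.0 over all loci. Of 18 other BMP and TGF-beta ligand genes of the same comparison 3 rose and 1 fell. All 5 SMADs had changes between −0.29 and −0.03 and none passed. Of the 7 intracellular Wnt components and Tcf/Lef factors none passed, with changes between −0.12 and 0.46. Control siRNA lay above QSC in both libraries at 15 loci (30.0%, against 33.2% of all loci) and below at 20 (34.1% of all loci). With 1 library left out, calls remained for Bmp6 alone (without QSC replicate 1, adjusted p = 0.0423), Fzd4 alone (without QSC replicate 2, 0.0478), Tgfbr3 alone (without control siRNA replicate 2, 0.0485) or for no locus (without control siRNA replicate 1). No change of sign occurred among the 7 in any alternative, but the calls depended on the setting. Of 12 alternatives that kept all libraries, Bmp6 was called in 12, Bmp4 in 11, Tgfbr3 in 10, Fzd4 in 8, Wnt4 in 7 and Dkk2 in 4. Mstn was called in 7 of 11. Without scaling to the library total, only Bmp4 and Bmp6 were called.

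**Figure D4:**
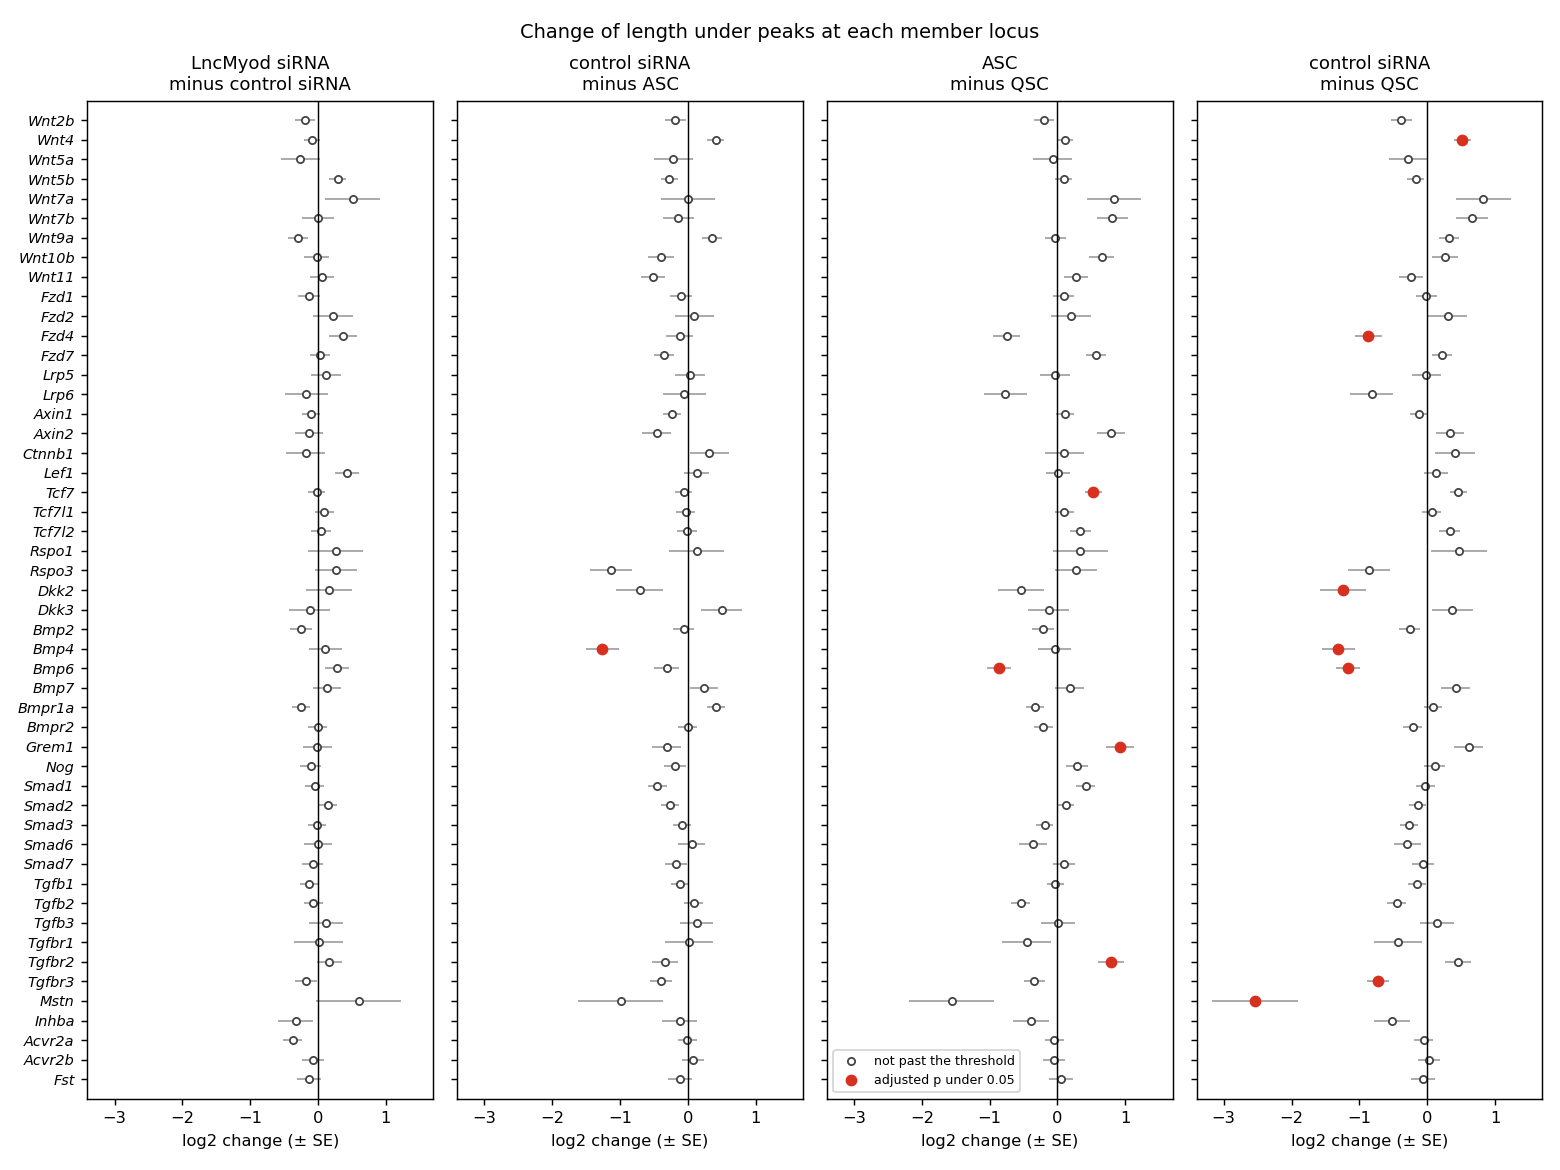
Change of covered length at the 50 loci in each comparison, as log2 change with its standard error, the first-named group minus the second; filled points passed an adjusted p under 0.05. Filled points are 0 in LncMyod siRNA against control siRNA, 1 in control siRNA against ASC, 4 in ASC against QSC and 7 in control siRNA against QSC; the point of Mstn in control siRNA depends on the 500 bp added before taking logs, since that group is at 0.

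LncMyod siRNA was compared with control siRNA to ask what the siRNA against LncMyod changes. None of the 50 loci passed by limma, and 0.0215% of all loci did. At an unadjusted p under 0.05 there was 1 member (Acvr2a), or 2.0%, against 9.81% of all loci. The median log2 change was −0.01 over the 50 and −0.05 over all loci, and every member but Mstn lay between −0.37 and 0.51. No member was called under any alternative run.

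Acvr2a, a type II receptor gene for activin and myostatin, had 1.75 and 1.49 kb in LncMyod siRNA, against 2.08 and 2.41 kb in control siRNA (log2 change −0.37, SE 0.14, adjusted p = 0.43). Lef1, a Tcf/Lef factor gene, had 4.69 and 7.27 kb in LncMyod siRNA, against 4.08 and 4.35 kb in control siRNA (log2 change 0.43, SE 0.18, adjusted p = 0.521). Wnt5b, a ligand gene, had 9.38 and 10.7 kb in LncMyod siRNA, against 9.16 and 7.17 kb in control siRNA (log2 change 0.29, SE 0.13, adjusted p = 0.551). These 3 loci did not overlap between groups, yet the LncMyod siRNA libraries differed from each other at Lef1 by more than their mean differed from control siRNA.

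The ligand gene Wnt9a had 5.05 and 5.37 kb in LncMyod siRNA, against 6.23 and 6.72 kb in control siRNA (log2 change −0.29, SE 0.15, adjusted p = 0.614). Bmpr1a had 3.77 and 4.4 kb in LncMyod siRNA, against 4.83 and 5.09 kb in control siRNA (log2 change −0.25, SE 0.13, adjusted p = 0.631). With equal list lengths or the stricter peaks, the signs of Lef1, Wnt5b and Wnt9a turned. Replicates differed widely at the ligand gene Wnt7a, with 2.09 and 5.87 kb in LncMyod siRNA, against 1.83 and 3.0 kb in control siRNA. LncMyod siRNA lay above control siRNA in both libraries at 5 loci (10.0%, against 14.9% of all loci) and below at 5 (10.0%, against 24.4%).

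Peaks of the 8 libraries merged into 141310 regions, of which 533 lay at the 50 loci, and no region was shared by 2 of these loci. All 8 libraries held 150 of the 533 (28.1%, against 25.0% of all regions), spread over 49 of the 50 genes. A single library held 131 (24.6%, against 26.0%). Regions held by both libraries of QSC and by no other library numbered 31 at 18 genes (5.82%, against 5.18%). Those held by all siRNA libraries and by neither ASC nor QSC numbered 20 at 16 genes (3.75%, against 4.78%). ASC and QSC alone shared 5 (0.938%, against 0.551%), and ASC alone held 3 (0.563%, against 0.856%), at Smad3 and Tgfbr3. LncMyod siRNA alone held 7 at 7 genes (1.31%, against 1.26%), namely Wnt5b, Axin1, Lef1, Tcf7, Tcf7l2, Bmpr2 and Tgfbr2, and control siRNA alone held 4 (0.75%, against 0.832%), at Wnt9a, Lef1, Tgfb3 and Tgfbr3. These shares lie near those of the genome and are no result about the pathways.

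**Figure D5:**
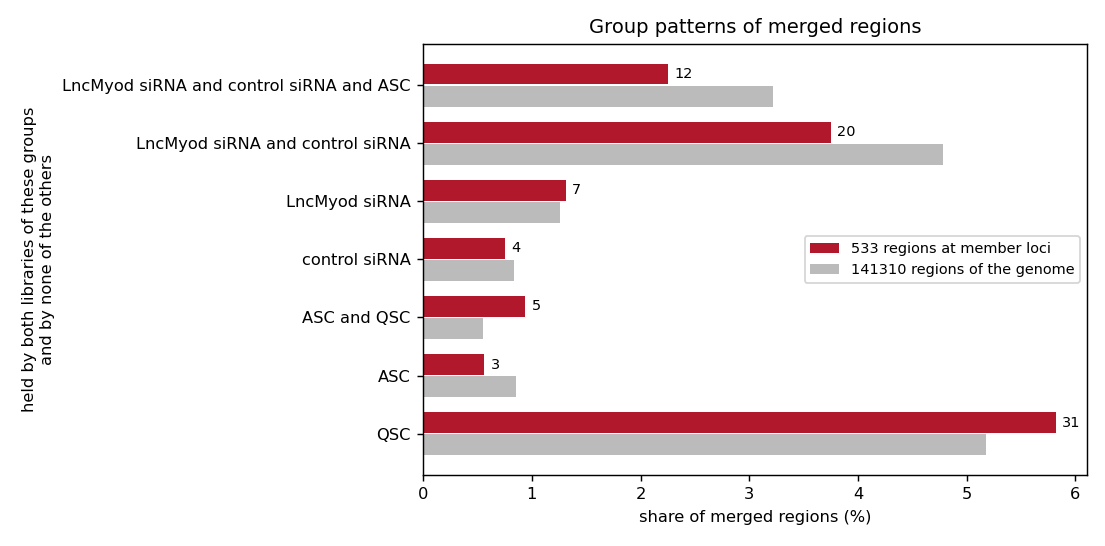
Share of merged regions held by both libraries of the groups named on the left and by no library of the other groups, for the 533 regions at the 50 loci (red, with counts) and the 141310 regions of the genome (grey). Of the 7 patterns drawn, which leave out regions held by all 8 libraries, QSC only is the most frequent in both sets, at 5.82% and 5.18%.

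Against QSC, ASC had 20 specific regions (3.75%, against 5.99% of all regions), held by both ASC libraries and neither QSC library, while 49 (9.19%, against 8.54%) were specific to QSC. Control siRNA had 47 specific regions against ASC (8.82%, against 11.7%), and ASC 16 (3.0%, against 2.64%). Against QSC, control siRNA had 59 (11.1%, against 15.5%), and QSC 57 (10.7%, against 8.09%). LncMyod siRNA had 12 against control siRNA (2.25%, against 2.2%), and control siRNA 7 (1.31%, against 1.42%). With 2 libraries a group, the smallest p of an exact permutation test is 0.33, and no p is given for these counts.

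Regions centred within 1 kb of any RefSeq start made up 3 of the 49 specific to QSC against ASC (6.12%, against 2.44% of such regions in the genome) and 1 of the 20 specific to ASC (5.0%, against 4.76%). So placed were 48 of the 150 found in every library (32.0%, against 30.7%). The lower share among group-specific regions is thus seen across the genome and is not particular to these genes. The Bmp4 start region and the region upstream of Mstn were among the 3.

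The Wnt receptor gene Fzd7 had the region with the highest fold enrichments among the regions of the 50 loci that neither QSC library held. It lies at chr1:59475557-59476221, centred at −6258 bp from the start, with fold enrichments of 9.69 and 8.46 in LncMyod siRNA, 10.6 and 10.1 in control siRNA and 7.0 and 5.13 in ASC, and no peak in QSC. Each of 12 genes had 1 region of this kind, held by all libraries but those of QSC (2.25%, against 3.22% of all regions). Such a merged region can join peaks at different places, as at Tgfbr2. The 12 were the ligand gene Wnt7b, the receptor genes Fzd7, Lrp5 and Lrp6, Axin2, Tcf7, Tcf7l1, Bmp7, Bmpr1a, Grem1, Tgfbr2 and the follistatin gene Fst. At Axin2, a Wnt target that feeds back on the pathway, the region was chr11:108952099-108952665, with fold enrichments of 3.75 and 3.26 in LncMyod siRNA, 5.52 and 4.07 in control siRNA and 5.66 and 3.55 in ASC.

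The 5 genes with most group-specific regions over the comparisons were Tgfbr3, Lrp6, Tcf7l2, Bmp6 and Tgfb2, all long genes. Of the 35 regions at Tgfbr3, 2 were held by ASC alone and 2 by ASC and QSC alone, among them chr5:107157436-107159758 with fold enrichments of 2.9 and 3.19 in ASC and 3.99 and 4.02 in QSC. Lrp6, the Wnt co-receptor gene, had 9.11 and 4.82 kb in ASC, against 12.7 and 10.8 kb in QSC (log2 change −0.77, SE 0.32, adjusted p = 0.173), and 4 of its 22 regions were held by QSC alone. Control siRNA had 6.42 and 6.39 kb there. Tgfb2, a TGF-beta ligand gene, had 6.7 and 5.82 kb in ASC, against 8.62 and 9.98 kb in QSC (log2 change −0.54, SE 0.14, adjusted p = 0.0517), with 3 QSC-only regions among 18.

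Tcf7l2, a Tcf/Lef factor gene with 37 regions, had 13.2 and 16.7 kb in ASC, against 11.9 and 11.4 kb in QSC (log2 change 0.34, SE 0.15, adjusted p = 0.212). Control siRNA had 16.4 and 13.3 kb there, and LncMyod siRNA 16.5 and 14.0 kb. Among the SMADs, Smad3 held 15 of its 28 regions in all 8 libraries, the most of any of the 50 genes. In contrast, 8 genes had no group-specific region in any comparison. They were the ligand genes Wnt2b, Wnt5a, Wnt10b, Wnt11 and Bmp2, the noggin gene Nog, Smad2 and Acvr2a.

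Several loci close to the threshold also had a region missing from QSC. Fzd7 had 3.7 and 4.13 kb in ASC, against 2.81 and 2.16 kb in QSC (log2 change 0.57, SE 0.15, adjusted p = 0.0519). Axin2 had 5.63 and 3.59 kb in ASC, against 2.59 and 2.21 kb in QSC (log2 change 0.79, SE 0.21, adjusted p = 0.0555). Wnt7b had 6.53 and 5.41 kb in ASC, against 2.9 and 3.5 kb in QSC (log2 change 0.81, SE 0.23, adjusted p = 0.0613). None passed with the settings as reported, although no ASC library lay as low as a QSC library at any of the 3. Both ASC libraries lay above both QSC libraries at 33.1% of all loci. Axin2 rose past the threshold with stricter peaks and with 50 kb flanks, and Wnt7b with stricter peaks and with equal list lengths. Fzd7 passed in no alternative of this comparison. At Tgfbr2 further regions separated cultured from freshly isolated cells: chr9:116136104-116136514, inside the gene, had fold enrichments of 3.09 and 3.28 in LncMyod siRNA and 5.02 and 3.5 in control siRNA and no peak in ASC or QSC, as had chr9:116184884-116185332, centred at −9745 bp from the start.

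A further 105 genes of the same pathways were tested beside the 50. In ASC against QSC 9 rose and 5 fell (13.3%, against 12.8% of all loci). The first in order of p were Rspo4, an R-spondin gene, with 1.89 and 2.93 kb in ASC against 0.507 and 0.344 kb in QSC (log2 change 1.64, limma adjusted p = 0.00594), and its receptor gene Lgr4, which fell, with 3.96 and 3.78 kb in ASC against 6.68 and 6.94 kb in QSC (−0.74, 0.0102). The BMP ligand gene Bmp5 and Gdf10 rose (1.57 and 1.27), and Kremen1, a receptor for Dickkopf proteins, and Ror1, a Wnt receptor gene, fell (−0.56 and −1.4). In control siRNA against ASC only Chrdl1, a BMP antagonist gene, and Gdf15 passed, and both fell (−0.96 and −0.91; 1.9%, against 4.0%). In LncMyod siRNA against control siRNA none passed by limma, the lowest adjusted p was 0.0867, and 12 had an unadjusted p under 0.05 (11.4%, against 9.81%). In control siRNA against QSC 10 rose and 8 fell (17.1%, against 16.9%), led by Rspo4 (1.94) and Lgr6 (0.92), which rose, followed by Acvr1b (0.77), Lgr4 (−0.73), Ltbp1 (−0.6) and Gdf10 (1.3). Rspo4 in that comparison stayed called without any 1 library (adjusted p 0.031 to 0.0396). Of the other calls named in this paragraph, each was lost without at least 1 library.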

How the data were processed

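ATAC-seq peak lists of 8 libraries were analysed, 2 in each of 4 groups taken from the labels. Per the submitters' processing notes, the authors worked on mm10 with MACS2 2.1.1, Bowtie2 2.3.2 and Trimmomatic 0.36, besides Picard 2.9.2, bedtools 2.26.0, bcl2fastq 2.19 and SAMtools 1.3. Not given in the sources used here are their settings, the filter on peaks and any shift of read ends. The deposited broad peaks, one list per library, carry a fold enrichment over local background, −log10 p and −log10 q values and a display score, all as the authors' peak caller gave them; fold and −log10 q were used only within a library, and the score was not used. More reads in a library can raise both the number and the width of its peaks.

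Covered length per locus (gene body with 10 kb on both sides, RefSeq GRCm38.p6) was scaled to the mean library total and analysed as log2(bp + 500), a scale that understates changes of low loci. Of 34324 loci, 27934 were tested, those with 200 or more covered bp in 2 or more libraries. limma 3.58.1 (R 4.3.3; trended prior) fitted 4 group means to all 8 libraries, with Benjamini-Hochberg adjustment over all loci and a threshold of 0.05; "rose" and "fell" mean past it. Where 1 library is left out, the lone library is assumed to vary like the other groups. Peaks that overlapped were merged with Python 3.11.15, and a library held a region that any of its peaks overlapped by at least 1 bp. In simulated data, each of 27934 loci had its mean over all 8 libraries and its spread within the 4 groups. Known changes were added to ASC at 100 loci per size. In ASC against QSC, 29.0% of changes of log2 1 and 63.0% of log2 2 were called, with 1 false call. The share of loci changed there was smaller than the share called in the real comparison, which bears on the adjustment.

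The 50 genes and all gene lists were chosen with earlier results of these data known. Named in full were the members past the threshold in each comparison, then those next in p up to 5, and the 5 with most group-specific regions; of the other pathway genes, at most 6 per comparison that passed. Fzd7, Axin2, Wnt7a, Wnt7b, Smad3 and the genes listed by pattern of regions were named after their values were seen. Alternatives were no scaling, other pseudocounts, no filter, stricter peaks, equal list lengths, other flanks, numbers of peaks, quantile normalization, a fit on the 2 groups compared, a replicate block and leaving out each library. The value of 1 marker gene on its own is not reported here.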

Additional observations from a re-analysis of the deposited data

How the results depend on the processing

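No depth was known, and counts of calls moved with most choices; why they moved was not tested. The count of the 50 loci called in ASC against QSC was 0 without scaling, 7 with peaks of −log10 q of at least 5, 9 with equal list lengths, 8 with 50 kb flanks, 0 in a fit on the 2 groups only and 0 to 2 when 1 library was left out. In control siRNA against ASC it was 0 without scaling, 5 with stricter peaks, 6 with equal list lengths, 2 with the gene body alone, 2 by number of peaks, 0 on the 2 groups only and 0 to 0 with 1 library left out. In control siRNA against QSC it was 2 without scaling, 11 with equal list lengths, 13 with 50 kb flanks and 0 to 1 with 1 library left out. In LncMyod siRNA against control siRNA it was 0 throughout.

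Over all loci, calls in ASC against QSC numbered 1820 without scaling, 7086 with 50 kb flanks, 1186 on the 2 groups only and 712 to 2996 with 1 library left out. In control siRNA against ASC they were 368 without scaling, 2066 with stricter peaks, 2978 with equal lists, 1755 with 50 kb flanks, 704 on the 2 groups only and 0 to 707 with 1 left out. In LncMyod siRNA against control siRNA, where 6 were called, they were 38 without scaling, 10 with a pseudocount of 2000 bp, 14 with stricter peaks, 23 with equal lists, 50 with the gene body alone, 3 with 50 kb flanks, 200 by number of peaks, 10 with quantile normalization, 0 on the 2 groups only and 0 to 343 with 1 left out. In control siRNA against QSC they were 7847 with 50 kb flanks and 1016 to 1291 with 1 left out. The share of calls that rose in control siRNA against ASC was 57.0% scaled and 76.9% unscaled, and in ASC against QSC 59.0% scaled and 48.4% with quantile normalization; in control siRNA against ASC the median of all loci was −0.08 scaled and 0.04 unscaled.

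Replicate numbers are shared by the groups, and the labels do not say whether same-numbered libraries belong together. The correlation of same-numbered deviations was 0.01 to 0.04, which cannot tell whether they share an animal, culture or day. They were not treated as pairs. With the replicate number as a block, the calls among the 50 were 2 in ASC against QSC and 0 in control siRNA against ASC; over all loci they were 552 in control siRNA against ASC and 0 in LncMyod siRNA against control siRNA.

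ASC-specific regions against QSC numbered 12 with stricter peaks and 21 to 57 with 1 library left out, and QSC-specific ones 55 to 72. Against ASC, control siRNA had 29 with equal lists and 51 to 80 with 1 left out, and ASC had 4 with stricter peaks, 27 with equal lists and 18 to 48. LncMyod siRNA had 1 with stricter peaks, 3 with equal lists and 16 to 61, and control siRNA 11 to 32. Against QSC, control siRNA had 67 to 92, and QSC 21 with stricter peaks and 63 to 77.

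Among single loci, 498 values in the alternatives kept their direction and their state, called or not called. These include values of loci that had no call to keep, so 498 is not a count of calls that held. A further 161 lost the call, 13 gained one and 15 changed sign. The cause was not tested. With stricter peaks, ASC against QSC gave −0.09 for Tgfbr2, −0.59 for Tcf7, 0.02 for Kremen1 and −0.12 for Tcf7l2, and LncMyod siRNA against control siRNA −1.43 for Lef1, −0.16 for Wnt5b, 0.18 for Wnt9a and 0.04 for Bmpr1a. With equal lists the last comparison gave −0.33 for Lef1, −0.03 for Wnt5b and 0.02 for Wnt9a, and with 50 kb flanks 0.05 for Wnt9a. Fzd4 was 0.11 with the gene body alone in ASC against QSC. Grem1 was called in opposite directions in control siRNA against ASC and in control siRNA against QSC. In both it rose with stricter peaks and fell with equal lists. By number of peaks, Rspo3 was 0.97 in control siRNA against ASC and Tcf7l2 −0.04 in control siRNA against QSC.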
